A study of Mus musculus with 10 samples.

Results

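The lysosomal genes described here encode hydrolases, membrane proteins, lipid transfer proteins and subunits of the proton pump that acidifies the lysosome, together with the transcription factors TFEB and MITF. They were taken from a list of 34 gene symbols. A gene was measured where the array annotation paired at least 1 probe set with its symbol and no other, and its brightest such probe set, by the average of the 10 arrays, was used. That gave 32 of the 17097 genes measured in the series: 18 enzymes (10 proteases, and 8 that are glycosidases or a phosphatase), 3 genes of lipid handling, 4 membrane proteins, 2 transcription factors and 5 pump genes. Neu1 and Atp6v1c1 were not analysed here.

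The arrays came from a study of the inflammasome in diet-induced obesity. All mice were male and on a C57/Bl6 background. Feeding with 45 energy% from fat started at an age of 8 to 12 weeks and lasted 16 weeks, after which epididymal white adipose tissue was taken. The groups were wild-type mice (WT, n = 4), mice without the adaptor protein ASC (ASC-/-, n = 3) and mice without the protease caspase-1 (Casp1-/-, n = 3), with 1 array for each RNA sample. All groups had the high fat diet, no lean group was analysed here, and neither the construction of the null alleles nor whether the WT mice were littermates is given in the sources used here.

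Lysosomes break down proteins, glycans and lipids with hydrolases that work at acid pH. The vacuolar ATPase supplies that acidity: its V1 sector hydrolyses ATP in the cytosol and its V0 sector carries protons across the membrane. In obese fat, macrophages that surround dying adipocytes take up their lipid and degrade it in lysosomes, and TFEB, MITF and TFE3 are known to switch on many lysosomal genes through a promoter element built around the letters CACGTG.

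These letters read the same on both strands, and were searched together with the longer form GTCACGTG, which contains them and was searched on both strands, in the 250 bases before each transcription start in RefSeq annotation (GRCm38.p6). Of the 32 genes, 27 had at least 1 such window (36 windows in all), and 11 of those 27 genes (40.7%) held CACGTG, against 6.86% of all 27025 genes with a window and 8.75% of the 13605 that were also measured on the arrays. By window the share was 30.6% against 6.02%. GTCACGTG lay in 8 genes (29.6%), against 2.11% of all genes and 3.13% of those measured. The windows below belong to the 3 genes with the largest change past the threshold in Casp1-/- tissue (described further on) among those that hold the element, and to Lamp1, which was added after the search because it had the most matches; each is written 5′ to 3′ on the strand of its gene, up to the base before the start, as 250 bases for Gla and Atp6v1a and 120 for Lgmn and Lamp1, with CACGTG in capitals.
Gla, chrX:134601006-134601255, minus strand: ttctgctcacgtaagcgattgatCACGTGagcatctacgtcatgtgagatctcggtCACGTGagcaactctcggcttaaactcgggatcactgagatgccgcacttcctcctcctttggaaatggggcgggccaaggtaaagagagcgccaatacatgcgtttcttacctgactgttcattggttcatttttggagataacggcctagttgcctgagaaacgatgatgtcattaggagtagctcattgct
Lgmn, chr12:102439093-102439212, minus strand: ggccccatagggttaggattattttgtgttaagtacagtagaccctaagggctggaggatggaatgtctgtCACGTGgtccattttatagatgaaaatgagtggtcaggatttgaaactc
Atp6v1a, chr16:44139260-44139509, minus strand: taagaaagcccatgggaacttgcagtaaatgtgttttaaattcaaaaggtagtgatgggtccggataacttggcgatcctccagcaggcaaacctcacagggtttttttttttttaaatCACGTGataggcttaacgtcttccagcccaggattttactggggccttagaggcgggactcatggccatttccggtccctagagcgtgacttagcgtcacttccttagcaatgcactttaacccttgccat
Lamp1, chr8:13159041-13159160, plus strand: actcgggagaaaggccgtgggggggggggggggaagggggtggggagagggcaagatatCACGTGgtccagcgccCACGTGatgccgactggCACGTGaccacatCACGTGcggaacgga

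In Gla the capitals begin 227 and 194 bases before the start, in Lgmn 49, in Atp6v1a 131, and in Lamp1 61, 45, 28 and 15. The element also lay in the windows of Ctsa, Ctsd, Ctsl, Gaa, Glb1, Naglu and Mcoln1. It was present in 8 of 16 enzyme genes with a window and in 1 of 3 pump genes. Of the 9 genes with a window that passed the threshold in Casp1-/- tissue 5 held it, as did 6 of the 18 that did not pass. Ctsk, Gusb, Hexa and Ctsz, which passed, have no such letters in this window. A match describes the letters only, and binding was not measured.

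All array values below are log2 signals, listed in the order of the replicate numbers, and differences between groups are differences of log2 signal with their standard error (SE). Background, read from 23 control probe sets that should bind nothing in mouse RNA, had array medians of 2.91 to 3.15 and single values of up to 5.01. The labels were checked on the targeted genes: Pycard, which encodes ASC, lay at 3.20, 3.71 and 3.30 on the ASC-/- arrays, against 9.82 ± 0.62 in WT (SD, n = 4), and Casp1 lay at 4.86, 4.98 and 4.69 on the Casp1-/- arrays, against 9.32 ± 0.55 in WT (SD, n = 4). Casp4 and Pycard were also lower on the Casp1-/- arrays than in WT. Casp4 differed by -1.58 (SE 0.16, limma adjusted p = 0.00417) and Pycard by -1.23 (SE 0.30, limma adjusted p = 0.0380). Whether these differences belong to the Casp1 allele was not tested. Adiponectin (Adipoq), the defining adipocyte gene, read 13.23 to 13.73 on all 10 arrays. The mean of 24 poly-A spike-in probe sets, which report RNA added during labelling, was 7.51 to 8.07 on the 3 Casp1-/- arrays and 7.80 on WT replicate 1, but 5.76 to 6.50 on WT replicates 2 to 4 and the ASC-/- arrays. WT was thus the only genotype with arrays at both levels, and the comparison of Casp1-/- with WT within the high level sets 3 arrays against WT replicate 1 alone. RNA quality, read as the 3' less the 5' signal of actin, gave 0.82 to 0.98 in Casp1-/-, 0.46 to 1.05 in WT and 0.54 to 0.67 in ASC-/-.

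Many lysosomal genes, from cathepsins and glycosidases to a cholesterol exporter and subunits of the pump, had lower signals in Casp1-/- tissue than in WT. Of the 32 genes, 12 fell and none rose at an adjusted p under 0.05 (limma, Benjamini-Hochberg over all 17097 genes), while 3.86% of all genes were called lower and 4.31% higher. The median difference of the 32 genes was -0.47, beside 0.04 over all genes, and single genes ran from -1.90 (Gla) to 0.42 (Acp5). At an unadjusted p under 0.05, 20 genes were lower (11.3% of all genes) and 1, Acp5, was higher (16.3% of all genes). All Casp1-/- arrays lay below all WT arrays in 19 of the 32 genes (9.60% of all genes) and above them in 1, again Acp5 (15.1% of all genes). In whole tissue, fewer cells of a type and less RNA per cell cannot be told apart.

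The calls depended on single arrays and on the spike-in level. The 12 genes, selected as lower on these same arrays, kept their direction. With the spike-in level as a block, which leaves the difference between the Casp1-/- mean and WT replicate 1, none of the 32 genes passed, all 12 stayed below 0 and the median of the 32 was -0.22. No gene passed without Casp1-/- replicate 2 or without replicate 3, and 1 passed without Casp1-/- replicate 1 or without WT replicate 4. Without WT replicate 3 or without ASC-/- replicate 2 (whose arrays share in the estimate of spread), 7 passed. Without WT replicate 1, 20 passed, 19 lower and 1 higher. Over all genes 1397 passed with all arrays, 64 without Casp1-/- replicate 2 and 3018 without WT replicate 1.

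**Figure D1:**
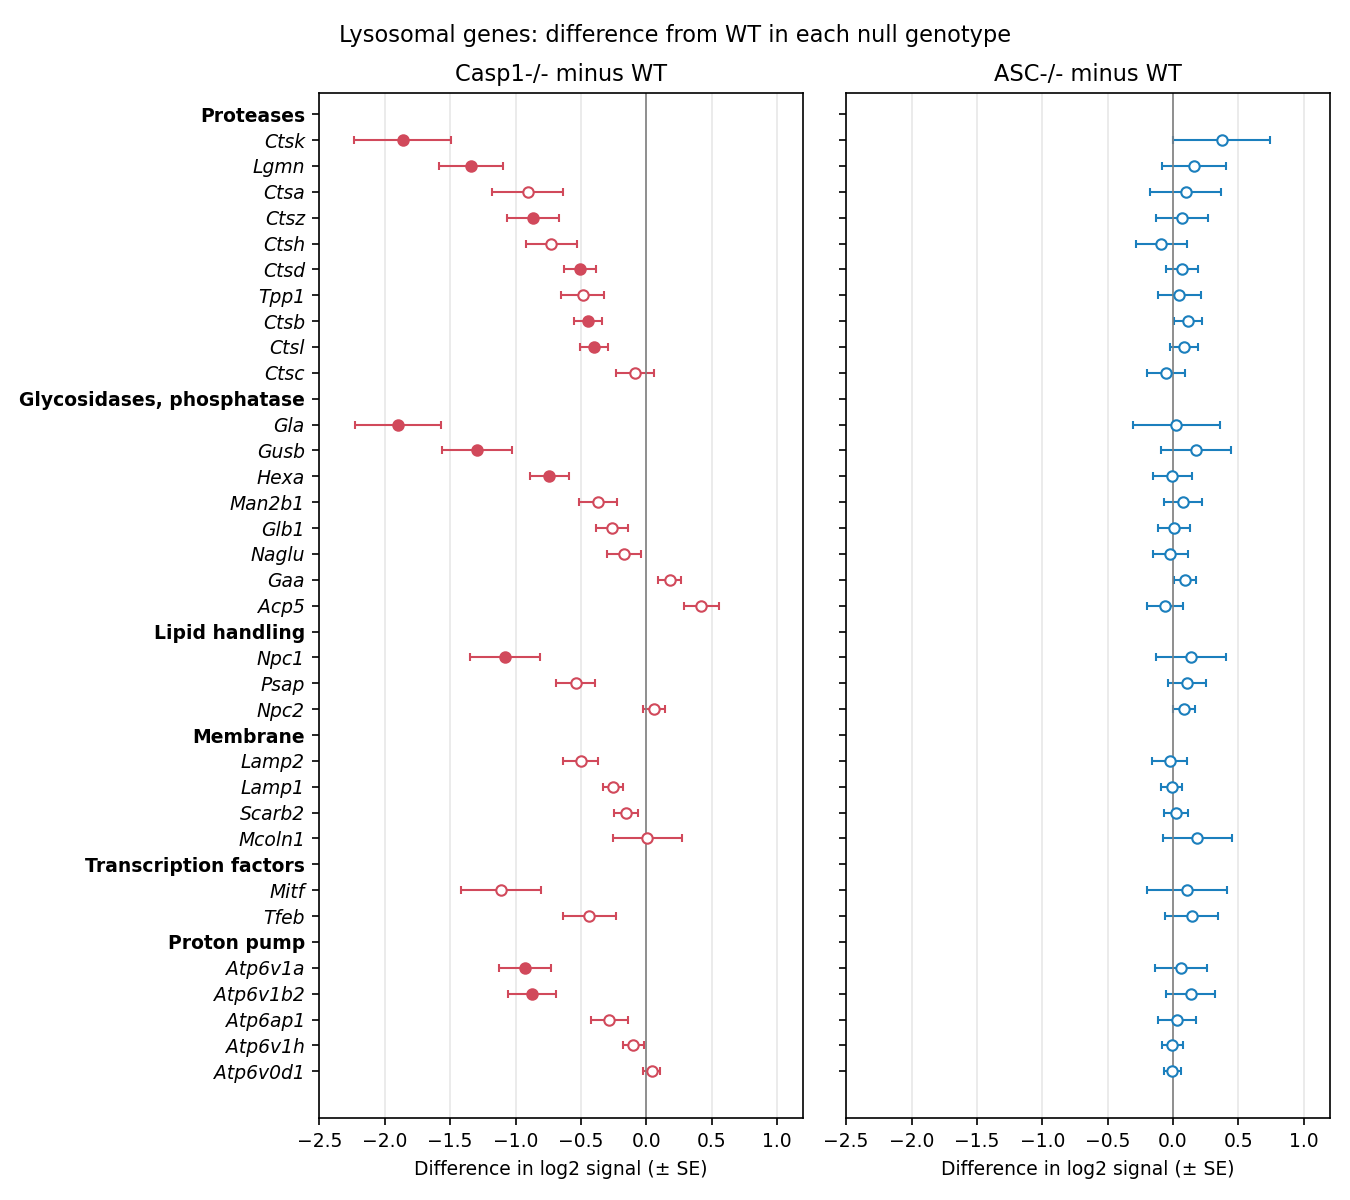
Difference of log2 signal from WT (x axis) for each of the 32 genes, grouped by role, in Casp1-/- (left, red) and ASC-/- (right, blue). Points are fitted differences, bars are 1 SE, and filled points have an adjusted p under 0.05. In Casp1-/- 12 points are filled, all below 0, and in ASC-/- none is.

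Among the proteases 6 of 10 fell in Casp1-/- tissue (3.86% of all genes), with a median of -0.62 for all 10. Ctsk, a cathepsin best known for cleaving collagen in osteoclasts, read 9.61, 9.26 and 9.50 on the Casp1-/- arrays, 10.47, 10.91, 12.19 and 11.72 on the WT arrays and 12.12, 11.56 and 11.40 on the ASC-/- arrays. Every Casp1-/- array lay below every other array, and the WT arrays spanned 1.72 against 0.35 for the Casp1-/- arrays. The difference from WT was -1.86 (SE 0.37, limma adjusted p = 0.0223), a 3.64-fold lower signal, and -1.01 with the spike-in block. Lgmn, the asparaginyl endopeptidase that processes several cathepsins, read 10.33, 10.06 and 10.06 in Casp1-/-, 10.90, 11.28, 12.04 and 11.75 in WT and 11.87, 11.65 and 11.44 in ASC-/-. Here too the groups did not overlap, and WT replicate 1 was again the lowest WT array. The Lgmn difference was -1.34 (SE 0.24, limma adjusted p = 0.0180) and -0.75 with the block.

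Ctsz, a cathepsin that trims single residues from the carboxyl end of proteins, read 11.38, 11.29 and 11.50 in Casp1-/-, 11.80, 12.08, 12.63 and 12.50 in WT and 12.61, 12.15 and 12.22 in ASC-/-. WT replicate 1 was the WT array nearest to the Casp1-/- arrays, without overlap. Its difference was -0.87 (SE 0.20, limma adjusted p = 0.0339), or -0.41 with the block. The aspartic protease Ctsd read 12.14, 11.85 and 11.93 in Casp1-/-, 12.30, 12.41, 12.66 and 12.55 in WT and 12.74, 12.49 and 12.41 in ASC-/-. The groups lay close but did not overlap, and the difference was -0.51 (SE 0.12, limma adjusted p = 0.0369; -0.33 with the block).

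The cysteine proteases Ctsb and Ctsl gave very bright signals and small differences. Ctsb read 12.71, 12.60 and 12.77 in Casp1-/-, 12.93, 13.13, 13.36 and 13.14 in WT and 13.35, 13.26 and 13.15 in ASC-/-. Ctsl read 12.79, 12.66 and 12.71 in Casp1-/-, 12.93, 12.98, 13.33 and 13.22 in WT and 13.25, 13.13 and 13.22 in ASC-/-. For both, the Casp1-/- arrays lay below all others and WT replicate 1 was the lowest WT array. Ctsb differed by -0.45 (SE 0.11, limma adjusted p = 0.0377) and Ctsl by -0.40 (SE 0.11, limma adjusted p = 0.0490), and with the block by -0.24 and -0.21. Of the 4 proteases that did not pass, Ctsa, the carboxypeptidase that protects other lysosomal enzymes, differed by -0.91 (limma adjusted p = 0.0705), the aminopeptidase Ctsh by -0.73 (limma adjusted p = 0.0514) and the tripeptidyl peptidase Tpp1 by -0.49 (limma adjusted p = 0.0991), all with Casp1-/- arrays below the WT arrays. Ctsc, the dipeptidyl peptidase that activates serine proteases of granules, differed by -0.08, and its arrays overlapped.

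Of the 8 genes for glycosidases and the phosphatase, 3 fell in Casp1-/- tissue (3.86% of all genes). Gla, the alpha-galactosidase that removes terminal galactose from glycolipids, had the largest difference of the 32 genes. Its signal was 6.82, 6.48 and 6.59 on the Casp1-/- arrays, 7.73, 8.36, 9.34 and 8.70 on the WT arrays and 8.98, 8.50 and 8.20 on the ASC-/- arrays. The Casp1-/- arrays kept within 0.34 of each other while the WT arrays spanned 1.60, and the groups did not overlap. The difference was -1.90 (SE 0.33, limma adjusted p = 0.0163), a 3.73-fold lower signal, and -1.10 with the block. Gusb, the beta-glucuronidase of glycosaminoglycan breakdown, read 9.80, 9.54 and 9.93 in Casp1-/-, 10.42, 10.80, 11.67 and 11.33 in WT and 11.50, 11.19 and 11.01 in ASC-/-. It differed by -1.29 (SE 0.27, limma adjusted p = 0.0252) without overlap, and by -0.66 with the block.

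Hexa, the alpha subunit of beta-hexosaminidase, which degrades gangliosides, read 11.37, 11.15 and 11.09 in Casp1-/-, 11.62, 11.91, 12.27 and 11.98 in WT and 12.08, 11.94 and 11.79 in ASC-/-. Its Casp1-/- arrays were the lowest, and its difference was -0.74 (SE 0.15, limma adjusted p = 0.0226), or -0.42 with the block. The alpha-mannosidase Man2b1 (-0.37), the beta-galactosidase Glb1 (-0.26), Naglu of heparan sulfate breakdown (-0.17) and the glycogen-degrading Gaa (0.18) did not pass, and the Casp1-/- arrays of each overlapped the WT arrays.

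Acp5, the tartrate-resistant acid phosphatase of osteoclasts and some macrophages, went the other way. It read 12.03, 11.97 and 11.88 on the Casp1-/- arrays, 11.80, 11.69, 11.20 and 11.45 on the WT arrays and 11.43, 11.39 and 11.60 on the ASC-/- arrays. All Casp1-/- arrays lay above all others, and WT replicate 3, the highest WT array for most of the 32 genes, was the lowest here. The difference from WT was 0.42 (SE 0.14) and did not pass (limma adjusted p = 0.0839); with the spike-in block it was 0.16. Acp5 lies on chromosome 9, as Casp1 does, 162 protein-coding genes away in the RefSeq gene order. Hexa, Ctsh and Glb1 lie on that chromosome too, 589, 809 and 1082 genes away. Whether sequence linked to the Casp1 allele bears on these genes was not tested.

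**Figure D2:**
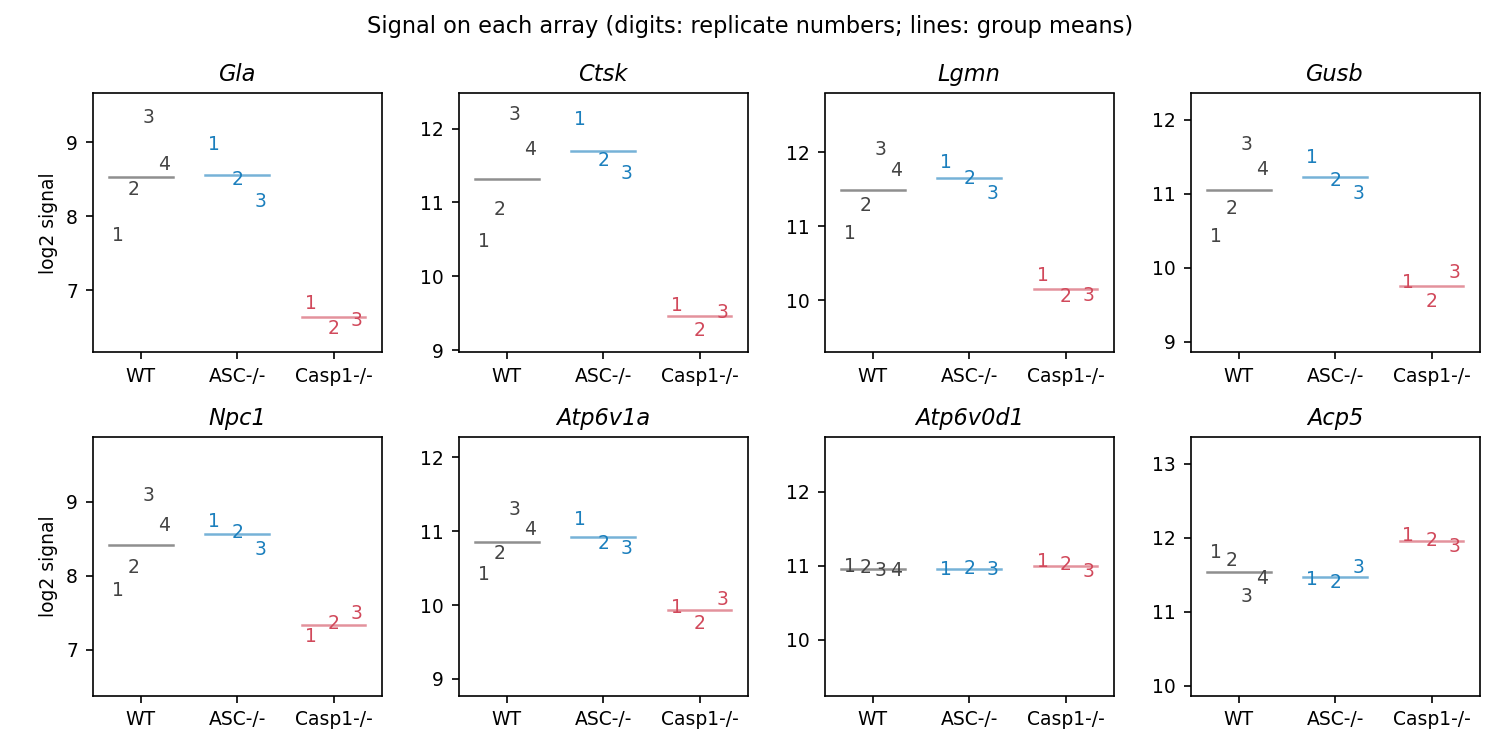
Log2 signal (y axis) of 8 genes on each array, by genotype. Digits are replicate numbers and lines are group means, and every panel spans the same number of log2 units. Casp1-/- arrays are lowest in Gla, Ctsk, Lgmn, Gusb, Npc1 and Atp6v1a, highest in Acp5 and level with the others in Atp6v0d1.

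In lipid handling, Npc1, the membrane protein that exports cholesterol from the lysosome, read 7.17, 7.36 and 7.49 in Casp1-/-, 7.81, 8.11, 9.08 and 8.68 in WT and 8.73, 8.59 and 8.36 in ASC-/-. The Casp1-/- arrays lay below all others and the difference was -1.08 (SE 0.27, limma adjusted p = 0.0412), or -0.47 with the block. Npc2, the soluble protein that hands cholesterol to Npc1, read 12.97, 12.86 and 12.87 in Casp1-/-, 12.86, 12.99, 12.74 and 12.77 in WT and 12.82, 12.97 and 12.98 in ASC-/-. These arrays overlapped, with a difference of 0.06 (95% confidence interval -0.13 to 0.25). Psap, the precursor of the saposins that present lipids to hydrolases, read 12.24, 11.93 and 12.19 in Casp1-/-, 12.43, 12.63, 13.01 and 12.57 in WT and 12.95, 12.71 and 12.65 in ASC-/-. Its Casp1-/- arrays were the lowest, but the difference of -0.54 (SE 0.15) from WT did not pass (limma adjusted p = 0.0533).

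None of the 4 membrane proteins passed in Casp1-/- tissue (limma), while 2 were lower at an unadjusted p under 0.05 (11.3% of all genes). Lamp1, a major glycoprotein of the lysosomal membrane, read 12.08, 11.96 and 11.99 in Casp1-/-, 12.18, 12.26, 12.40 and 12.21 in WT and 12.30, 12.27 and 12.18 in ASC-/-. The Casp1-/- arrays lay just below all others, and the difference was -0.25 (SE 0.08, limma adjusted p = 0.0759). Lamp2, its close relative with a part in autophagy, differed by -0.50 (limma adjusted p = 0.0502), also without overlap. Scarb2, the receptor that carries glucocerebrosidase to lysosomes, differed by -0.15 and the calcium channel Mcoln1 by 0.01, both with overlapping arrays. WT replicate 4 stood low for Mcoln1, at 6.81 against 7.81 to 8.12 on the other WT arrays.

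Neither transcription factor passed (limma), while Mitf was lower at an unadjusted p under 0.05 (11.3% of all genes). Mitf read 8.20, 8.06 and 8.27 in Casp1-/-, 8.70, 8.81, 10.07 and 9.55 in WT and 9.72, 9.32 and 9.12 in ASC-/-. Its Casp1-/- arrays lay below all others, and the difference of -1.11 (SE 0.31) fell short of the threshold (limma adjusted p = 0.0551). Tfeb differed by -0.44 (SE 0.20, limma adjusted p = 0.201), and its arrays, at 5.22, 5.75 and 5.41 in Casp1-/- and 5.46 to 6.39 in WT, overlapped, with Casp1-/- replicate 2 above WT replicates 1 and 4.

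The pump genes changed unevenly in Casp1-/- tissue. Of the 5 genes, 2 fell (3.86% of all genes), both from the part of the V1 sector that binds ATP. The median difference was -0.28, beside -0.50 for the 18 enzymes, 9 of which fell, and 0.04 over all genes. Atp6v1a, the catalytic A subunit, read 9.97, 9.75 and 10.08 in Casp1-/-, 10.41, 10.70, 11.30 and 11.03 in WT and 11.16, 10.83 and 10.77 in ASC-/-. Atp6v1b2, a B subunit, read 10.09, 9.71 and 9.89 in Casp1-/-, 10.41, 10.69, 11.18 and 10.80 in WT and 11.14, 10.91 and 10.66 in ASC-/-. In both genes the Casp1-/- arrays were the lowest without overlap and WT replicate 1 was the lowest WT array. Atp6v1a differed by -0.92 (SE 0.20, limma adjusted p = 0.0279) and Atp6v1b2 by -0.87 (SE 0.19, limma adjusted p = 0.0259), or by -0.48 and -0.51 with the spike-in block.

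The other pump genes overlapped between Casp1-/- and WT. Atp6v0d1, the widely expressed d subunit of the V0 sector, read 11.06, 11.02 and 10.92 in Casp1-/-, 11.00, 10.97, 10.93 and 10.94 in WT and 10.95, 10.97 and 10.95 in ASC-/-. All 10 arrays were close together, and the difference of 0.04 had a 95% confidence interval of -0.10 to 0.19. The V1 subunit Atp6v1h, which helps regulate ATP hydrolysis, differed by -0.10 (95% confidence interval -0.28 to 0.08) and the accessory protein Atp6ap1 by -0.28 (-0.60 to 0.04). Whether enzymes and pump genes differ as groups was not tested.

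Further pump genes, from a wider list of 16 measured, included larger differences. Of the 16, 3 fell (3.86% of all genes) and 1 rose (4.31% of all genes), with a median of -0.12. At an unadjusted p under 0.05 (limma), 7 were lower (11.3% of all genes) and 2 higher (16.3% of all genes). Atp6v0d2, the d subunit isoform known from osteoclasts and macrophages, read 8.42, 7.04 and 8.62 in Casp1-/-, 10.25, 10.82, 12.01 and 11.61 in WT and 11.73, 11.36 and 11.02 in ASC-/-. The difference of -3.15 (SE 0.48, limma adjusted p = 0.0112) was an 8.85-fold lower signal, and -2.22 with the spike-in block, under which it did not pass. Tcirg1, the a3 isoform of the V0 sector, also known from osteoclasts, differed by -1.63 (SE 0.32, limma adjusted p = 0.0221). The V0 subunit Atp6v0b, named after its value was seen, was the last to fall (-0.84, limma adjusted p = 0.0431). Atp6v1c2, likewise named afterwards, was the 1 gene of the list to rise (1.07, limma adjusted p = 0.00967), from a WT mean of 3.93 that lies within the background range. Atp6v0e2, also named afterwards, had a larger difference of 1.43 (SE 0.40) from a WT mean of 7.39. All its Casp1-/- arrays lay above all WT arrays, but it did not pass (limma adjusted p = 0.0556). With the spike-in block none of these passed.

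**Figure D3:**
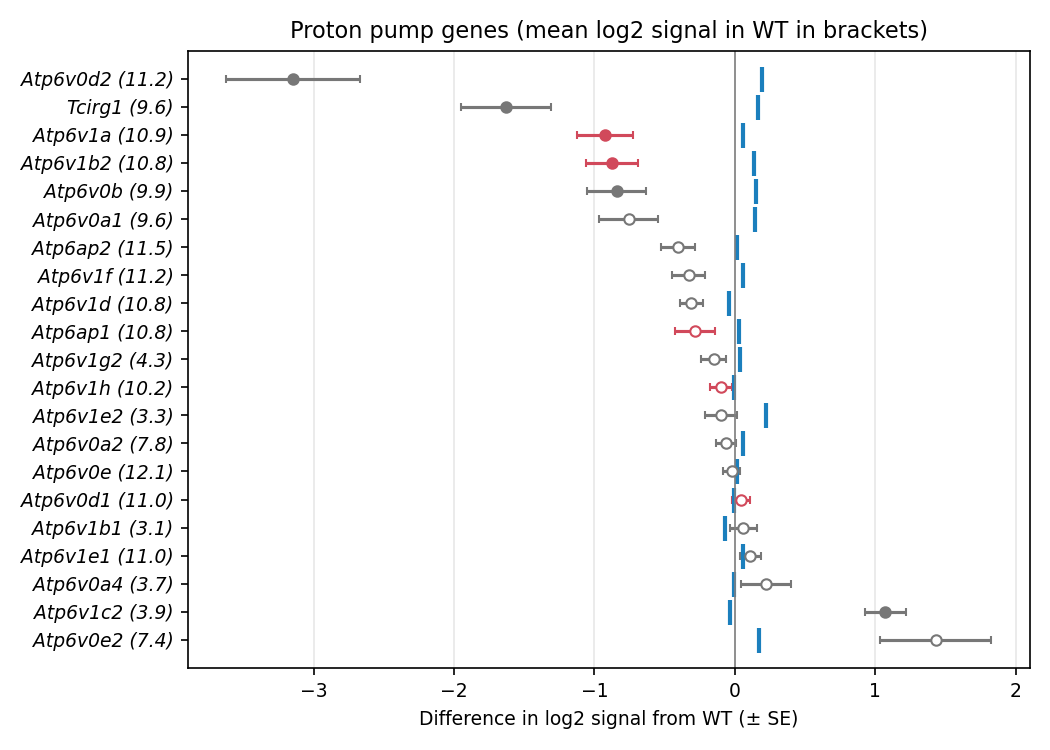
Difference of log2 signal from WT (x axis) for 21 genes of the proton pump. Circles with bars of 1 SE are Casp1-/- minus WT, red for the 5 pump genes described first and grey for the 16 further genes, filled where the adjusted p is under 0.05, and blue ticks are ASC-/- minus WT. Brackets give the mean log2 signal in WT. Atp6v0d2 lies farthest to the left at -3.15, while Atp6v0d1 lies at 0.04.

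Other lysosomal genes were also mixed. Of 21 further hydrolases and activators measured, 3 fell in Casp1-/- tissue (3.86% of all genes) and 1 rose (4.31% of all genes), with a median of -0.04. The lysosomal lipase Lipa, which frees cholesterol and fatty acids from stored esters, fell by 1.72 (SE 0.30, limma adjusted p = 0.0161), and the macrophage cathepsin Ctss differed by -1.12 (SE 0.20, limma adjusted p = 0.0180). The galactosylceramidase Galc (95% confidence interval -1.51 to -0.49, limma adjusted p = 0.0316) also fell and the cathepsin Ctsf (0.45, limma adjusted p = 0.0430) rose, both named after their values were seen. Of 16 further membrane proteins, 4 fell and none rose, with a median of -0.28. They included Cd68, a glycoprotein of macrophage lysosomes (-2.12, SE 0.35, limma adjusted p = 0.0137), and Laptm5, a lysosomal protein of blood cells (-1.46, SE 0.35, limma adjusted p = 0.0367). Cln3 (-1.18) and the chloride transporter Clcn7 (-0.62) were the others.

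Among 11 genes of enzyme sorting, inhibition and nutrient signalling, the cathepsin inhibitor Cstb fell (-0.59, SE 0.09, limma adjusted p = 0.0110) and the signalling GTPase Rragc rose (0.27, SE 0.07, limma adjusted p = 0.0434). Over all genes 3.86% were called lower and 4.31% higher. The relatives of TFEB and MITF did not pass: Tfe3 differed by -0.30 (limma adjusted p = 0.136) and Tfec, a relative found in macrophages, by -1.11 (limma adjusted p = 0.104). None of the genes in these wider lists passed with the spike-in block.

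Macrophage markers moved with these genes. Of 19 markers measured, 14 fell in Casp1-/- tissue (3.86% of all genes) and none rose (4.31% of all genes), with a median difference of -1.32. None of the 19 was below the background medians on any array, although Cx3cr1 stayed below the highest single background value of the 10 arrays. Their mean signal was 8.50 to 8.78 on the Casp1-/- arrays, 9.32 to 10.72 on the WT arrays and 9.97 to 10.39 on the ASC-/- arrays. The mean of the 18 enzymes was 10.45, 10.33 and 10.32 on the Casp1-/- arrays, 10.67, 10.90, 11.37 and 11.12 on the WT arrays and 11.25, 11.03 and 10.96 on the ASC-/- arrays. The 5 pump genes averaged 10.35, 10.21 and 10.31 in Casp1-/-, 10.53, 10.66, 10.98 and 10.71 in WT and 10.91, 10.73 and 10.65 in ASC-/-. The enzymes were lowest on the 3 arrays with the lowest markers and highest on WT replicate 3, which had the highest. Cd68 and Ctss, counted above with the lysosome, are also macrophage genes, and many of the 32 genes are expressed in macrophages as well as in other cells. With the spike-in block none of the 19 passed and their median was -0.58. The part of macrophage content in the differences was not tested.

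Fewer markers of other cell types passed. Of 10 adipocyte markers 1, Pparg, rose in Casp1-/- tissue (4.31% of all genes). The mean of the 10 was 11.69 to 11.77 there, 10.55 to 11.51 in WT and 11.01 to 11.36 in ASC-/-. Of 8 progenitor markers 1, Col1a1, fell (3.86% of all genes), and none of 10 endothelial, 7 mesothelial, 9 lymphocyte and 7 epididymis markers passed. As means over each list, lymphocyte markers read 4.09 to 4.72 and epididymis markers 3.46 to 5.36 on the 10 arrays. Single background values reached 5.01, so these lists can show little of a fall. Means of Pi16 (3.49), Pdgfra (4.26), the adipocyte marker Pnpla2 (4.54) and the mesothelial marker Wt1 (4.76) also lay within the background range. At an unadjusted p under 0.05, which 16.3% of all genes passed as higher and 11.3% as lower, 6 of 10 adipocyte markers, 7 of 10 endothelial markers, 1 mesothelial and 1 progenitor marker were higher. At the same level 3 progenitor markers were lower and no lymphocyte or epididymis marker passed. All Casp1-/- arrays lay above all WT arrays in 7 of the 10 adipocyte markers (15.1% of all genes). The median difference was 0.54 for the adipocyte, 0.52 for the endothelial and 0.63 for the mesothelial markers, beside 0.04 over all genes. It was -0.26 for the progenitor, -0.01 for the lymphocyte and 0.06 for the epididymis markers. With the spike-in block the adipocyte, endothelial and mesothelial medians were 0.19, 0.39 and 1.00, beside 0.03 over all genes. The progenitor, lymphocyte and epididymis medians were then 0.07, 0.08 and -0.05.

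**Figure D4:**
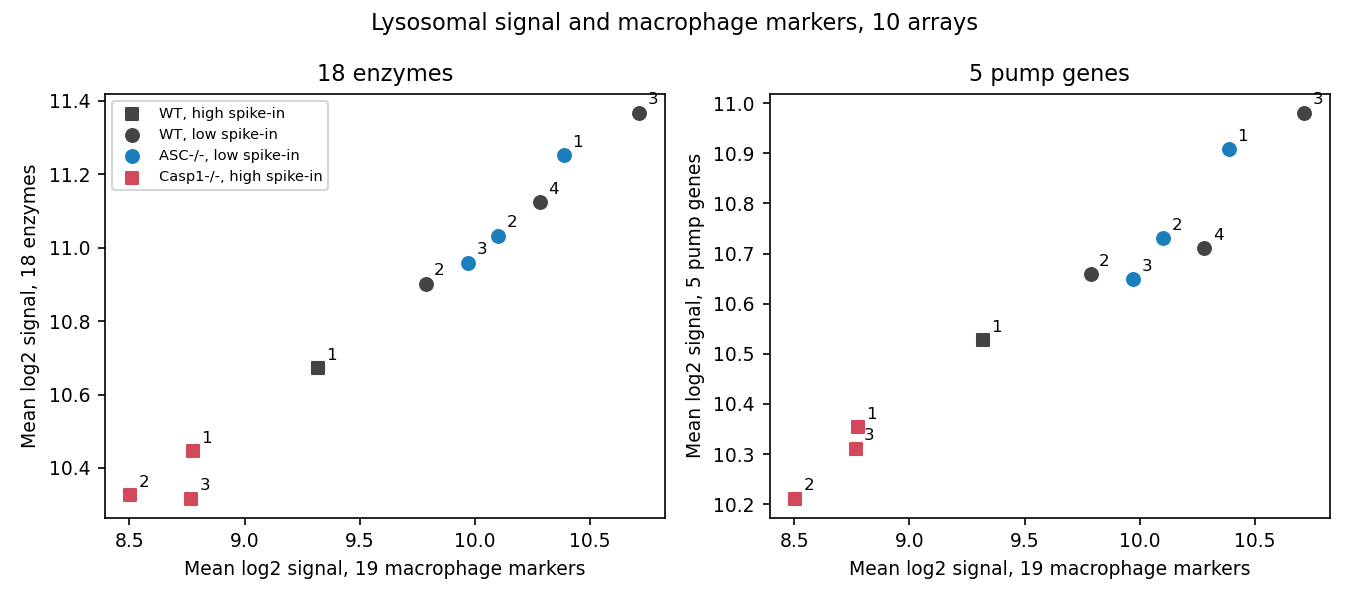
Mean log2 signal of the 18 enzymes (left) and of the 5 pump genes (right) against the mean log2 signal of 19 macrophage markers, for each of the 10 arrays. Colours are genotypes, squares are arrays with high and circles arrays with low spike-in signal, and digits are replicate numbers. Casp1-/- arrays lie at the lower left, WT replicate 1 next to them and WT replicate 3 at the upper right.

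The WT arrays differed among themselves in the same genes. WT replicate 3 was the highest WT array for 27 of the 32 genes, against 30.0% of all genes, and WT replicate 1 the lowest for 23, against 29.5% of all genes. The order of replicates 1, 2, 4 and 3 from lowest to highest held for 17 of the 32 genes, against 12.1% of all genes. It held for all 12 that fell in Casp1-/- tissue and for 5 of the 20 others. Across those 12 genes the gap from WT replicate 1 to replicate 3 ran from 0.36 (Ctsd) to 1.72 (Ctsk). WT replicate 1 still lay above all Casp1-/- arrays in 22 of the 32 genes, against 27.0% of all genes, and below all of them in 3, against 34.7% of all genes. The 22 were the 12 genes, which were selected as lower than WT on these same arrays, and 10 of the 20 others. WT replicate 1 shares the high spike-in level with the Casp1-/- arrays.

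In ASC-/- tissue no lysosomal gene was called different from WT. None of the 32 genes passed in limma in either direction, where 0.0175% of all genes were called higher and 0.0175% lower, and none had an unadjusted p under 0.05, where 0.971% of all genes were higher and 1.03% lower. In no gene did all ASC-/- arrays lie above all WT arrays (1.33% of all genes) or below them (1.86% of all genes). The median difference was 0.07, beside 0.01 over all genes, and differences ran from -0.09 for Ctsh to 0.37 for Ctsk, whose 95% confidence interval was -0.46 to 1.21. Gla, which differed most between Casp1-/- and WT, differed by 0.03 in ASC-/-, Lgmn by 0.16, Npc1 by 0.14, Atp6v1a by 0.06 and Atp6v1b2 by 0.13. The median was -0.04 with the spike-in block, with 13 genes above 0 and 19 below. Set against WT replicates 2 to 4 alone, which share the low spike-in level, the ASC-/- arrays still overlapped WT in all 32 genes, where 3.25% of all genes lay wholly above and 3.57% wholly below. None of the further hydrolases, pump genes, membrane proteins or sorting genes passed either, and none of the 19 macrophage markers. A difference that misses the threshold does not show equal expression.

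The null genotypes differed directly from each other. This comparison shares its arrays with those above and is not independent of them. Of the 32 genes, 13 were higher in ASC-/- than in Casp1-/- tissue and none lower (limma, adjusted p under 0.05), where 3.85% of all genes were called higher and 3.54% lower. The median was 0.55, beside -0.04 over all genes. All ASC-/- arrays lay above all Casp1-/- arrays in 24 genes (17.3% of all genes) and below them in 1, Acp5 (23.1% of all genes). By role, 6 of 10 proteases, 3 of 8 glycosidases and phosphatase, 2 of 3 lipid handling genes and 2 of 5 pump genes were higher, with none of the 4 membrane proteins and neither transcription factor.

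Ctsk had the largest difference between the null genotypes, 2.24 (SE 0.40, limma adjusted p = 0.0160), a 4.71-fold higher signal in ASC-/-. Gla followed at 1.93 (SE 0.35, limma adjusted p = 0.0177), then Lgmn at 1.50 (SE 0.26, limma adjusted p = 0.0151). Psap passed in this comparison, at 0.65 (SE 0.16, limma adjusted p = 0.0390). Atp6v1b2 was higher by 1.01 and Atp6v1a by 0.98, while Atp6v0d1 differed by -0.05. The enzyme median was 0.57 and the pump median 0.31. All ASC-/- arrays have low and all Casp1-/- arrays high spike-in signal, so that the 2 genotypes meet only through WT. With the spike-in block none of the 32 genes passed and the median was 0.24. None passed without Casp1-/- replicate 2 or 3 or without ASC-/- replicate 1 or 2. Without Casp1-/- replicate 1, 3 passed, without ASC-/- replicate 3, 8 passed, and without WT replicate 3, 21 passed (20 higher and 1 lower). Over all genes 1264 passed with all arrays, 47 without ASC-/- replicate 1 and 2615 without WT replicate 3. With the actin signal as a covariate 2 of the 32 genes passed.

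Genes with several probe sets did not give the same size of change throughout. The 15 such genes had 22 further probe sets, tested here together with all probe sets of 1 symbol. Of the 22, 10 fell in Casp1-/- tissue (3.07% of all 28898 such probe sets) and 1 rose (3.20%), and 19 were below 0. In ASC-/- tissue none passed (limma), against 0.0208% of the probe sets higher and 0.0104% lower. Between the null genotypes 11 were higher in ASC-/- (3.25%) and 1 was lower (2.72%). The difference between Casp1-/- and WT was farther from 0 than that of the probe set used above in 14 of the 22 and nearer to 0 in 8. For Ctsb the probe set used above, the brightest with a mean of 13.04, differed by -0.45, and the other 3, with means of 11.56, 11.09 and 10.35, differed by -1.09, -1.04 and -1.55. Ctsl differed by -0.40 on its bright probe set, which did not pass in this wider test (limma adjusted p = 0.0540), and by -1.41 on a dimmer probe set with a mean of 6.75 (limma adjusted p = 0.0225).

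The probe sets of Npc2 gave unlike differences. Those with means of 12.88 and 12.60 differed by 0.06 and -0.04, while the dimmest, with a mean of 9.11, fell by 1.42 in Casp1-/- tissue (limma adjusted p = 0.00664). Scarb2 had a second probe set that fell (-0.43, limma adjusted p = 0.0155) beside the -0.15 of the brighter, and Lamp2 another that fell (-0.80, limma adjusted p = 0.0416) beside -0.50 and -0.13. The 1 probe set that rose belonged to Ctsc, differed by 0.67 (limma adjusted p = 0.0385) and had a mean of 4.67, within the background range. In other genes the dimmer probe set lay nearer to 0: Ctsa differed by -0.91 on the bright and -0.37 on the dim probe set, Mitf by -1.11 and -0.18, Gla by -1.90 and -1.58 and Tpp1 by -0.49 and -0.36. The dim probe sets of Ctsa and Mitf, with means of 4.77 and 3.62, lie within the background range. What sets the probe sets of a gene apart was not tested.

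**Figure D5:**
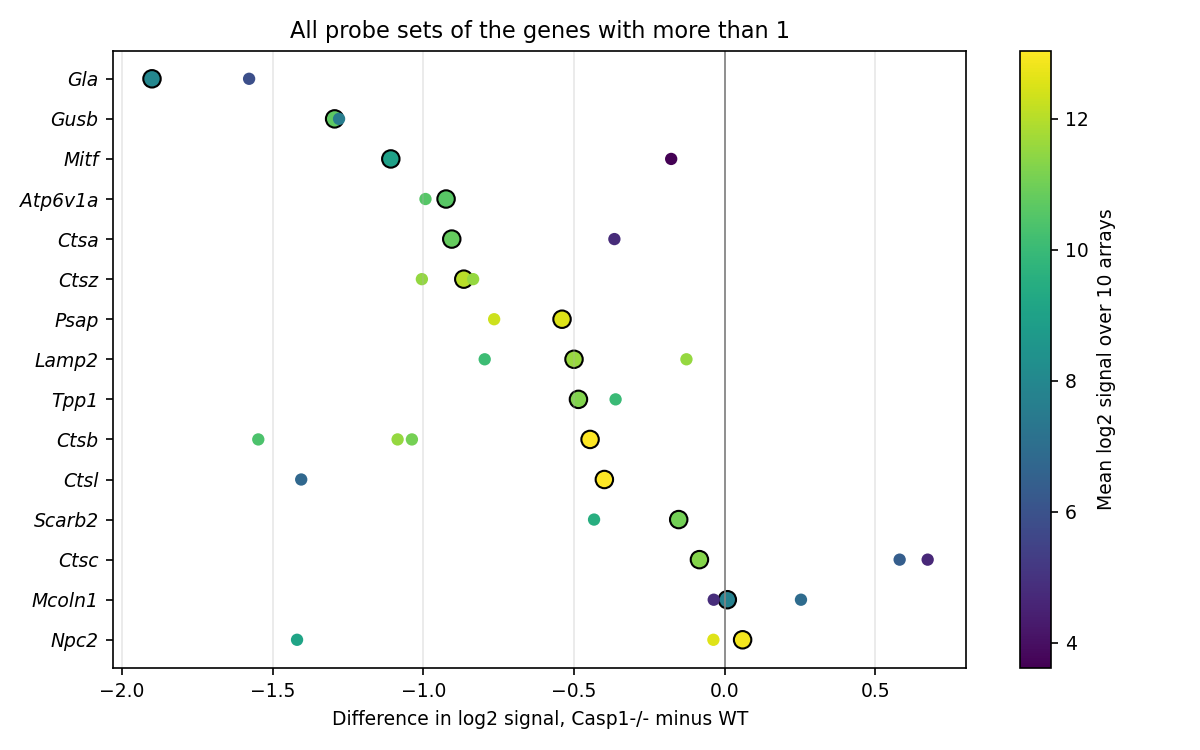
Difference of log2 signal between Casp1-/- and WT (x axis) for every probe set of the 15 genes with more than 1, coloured by the mean log2 signal over 10 arrays. Large outlined points are the probe sets that stood for the gene. The brightest points of Ctsb, Ctsl and Npc2 lie nearer to 0 than the dimmest point of each gene, and those of Ctsa, Mitf, Gla and Tpp1 lie farther from 0.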

How the data were processed

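Each RNA sample was hybridised to 1 HT_MG-430 PM array. The deposited values are log2 signals. Per the submitters' processing notes they come from RMA, which corrects background, quantile normalises the arrays together and summarises probes, so that changes shared by most genes are levelled and low signals are compressed. The RMA version and genome build are not given in the sources used here. Of 45141 probe sets, 104 controls, 551 with several symbols and 15588 with none were left out of the tests, and 28898 with 1 symbol gave 17097 genes, of which 7180 had more than 1 probe set. The brightest probe set by mean stood for a gene. limma 3.58.1 in R 4.3.3 was fitted to all 10 arrays with 1 mean per genotype (7 residual and 2.43 prior degrees of freedom), with two-sided tests and Benjamini-Hochberg adjustment over all genes. The code was tested on simulated data.

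The genes and all gene and marker lists were chosen with earlier results of these data known. Array values are given for genes past the threshold in any comparison and for Npc2, Lamp1 and Acp5, the 3 brightest that did not pass; those of Atp6v0d1, Mitf and Tfeb were added after they were seen. Of the wider lists, Atp6v0d2, Tcirg1, Ctss, Lipa, Cd68, Tfe3 and Tfec and the 2 largest changes past the threshold in each list and comparison are named, and others were chosen after their values were seen. Alternatives changed the normalisation, dim filter, probe set rule, variance model, weights, arrays, blocks and the actin covariate. The number of arrays limits precision, and p-values measure the spread between the arrays of a group, since nothing in the sources used here says how RNA of single mice was assigned to them. Promoters come from RefSeq (GRCm38.p6).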

Additional observations from a re-analysis of the deposited data

How the results depend on the processing

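No gene of the 32 passed between ASC-/- and WT under any alternative. Between Casp1-/- and WT, 19 passed with array weights (18 lower and 1 higher) and 2 with only the compared groups in the fit. With the replicate block or the spike-in block 0 passed, and leaving out 1 array gave 0 to 20. Between ASC-/- and Casp1-/-, 22 passed with array weights (21 higher and 1 lower) and 21 with only the compared groups (20 higher and 1 lower). With the actin covariate 2 passed, with the replicate block or the spike-in block 0, and leaving out 1 array gave 0 to 21. The 12 genes called in Casp1-/- tissue kept their sign in all 264 refitted values and lost the threshold in 115. Refits that changed only the variance model, the genes tested or the ASC-/- arrays could not change these differences. The 12 genes were also selected as lower on these same arrays. With the spike-in block the enzyme median became -0.22 for Casp1-/- against WT and 0.24 for ASC-/- against Casp1-/-. The fit to the high spike-in arrays alone gives the same differences between Casp1-/- and WT by construction. The 264 values count these differences under both settings. With 1 array left out the enzyme median ran from -0.58 to -0.41 for Casp1-/- against WT and from 0.49 to 0.63 for ASC-/- against Casp1-/-. For ASC-/- against WT it ran from -0.05 to 0.17. In the same order the pump median ran from -0.38 to -0.16, from 0.21 to 0.37 and from -0.03 to 0.15. Npc2 turned to -0.47 in Casp1-/- with the mean over its probe sets (limma adjusted p = 0.0190, the lowest of a range up to 0.953 over its alternatives). Over all genes, 1397 passed between Casp1-/- and WT, with 2998 under array weights, 469 with only the compared groups, 9 with the replicate block, 120 with the spike-in block, 226 among the high arrays and 64 to 3018 with 1 array left out. Between ASC-/- and Casp1-/- 1264 passed, with 3428, 3248, 19 and 63 under the first 4 of these, 231 with the actin covariate and 47 to 2615 with 1 array left out, and between ASC-/- and WT 6 passed, with 3 under the compared groups and under the replicate block. No pairing of the arrays by replicate number was seen: same-numbered arrays of different genotypes correlated in their deviations at -0.26 to 0.19. Groups of 3 or 4 arrays cannot exclude a pairing. With the replicate block the enzyme medians were 0.09 (ASC-/- against WT), -0.46 (Casp1-/- against WT) and 0.57 (ASC-/- against Casp1-/-). The pump medians were 0.02, -0.38 and 0.31. The cause of these changes was not tested.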
